A study of Homo sapiens with 7 samples.

Results

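The fibroblast growth factor (FGF) pathway was followed through 10 genes in NCI-H520, a lung squamous carcinoma cell line of human origin that is known to carry extra copies of FGFR1. The genes were the receptors FGFR1, FGFR2, FGFR3 and FGFR4, the ligand FGF2, the binding proteins FGFBP1 and FGFBP2, and the feedback inhibitors SPRY2, SPRY4 and DUSP6. Members were all gene probes whose transcript accession was named as one of these symbols in a RefSeq gene table, which gave 14 probes for 10 genes, out of 42405 gene probes and 19062 named genes on the array. Expression was measured on 7 single-colour Agilent arrays with 1 array per group. The groups were cells transfected with the empty vector pLKO.1, with a non-target shRNA, or with an shRNA against PARN, CNOT6, CNOT6L, CNOT7 or NOC, which are deadenylases, enzymes that shorten the poly(A) tail of mRNA. NOC is nocturnin, whose gene symbol is now NOCT. Every culture received 6 µg of plasmid by lipid transfection, 12 h later puromycin (6 µg/mL) was given to select transfected cells, and cells were harvested at 72 h, so the controls went through transfection and selection too. In the labels the CNOT6L plasmid carries the target accession of NOC, as the NOC plasmid does, which leaves the target of the CNOT6L shRNA uncertain. The question was whether the FGF genes differed with each shRNA.

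FGFs are secreted ligands that bind receptor tyrosine kinases together with heparan sulphate. The activated receptor passes its signal through the adaptor FRS2 to RAS and the kinase ERK, and ERK activity raises transcription of ETS factors such as ETV4 and ETV5 and of inhibitors that damp the pathway. Sprouty proteins (SPRY2, SPRY4) act on receptor signalling upstream of ERK, and DUSP6 is a phosphatase that removes the activating phosphates from ERK. FGFBP1 releases FGFs from the extracellular matrix. FGFBP2 belongs to the same family by sequence, is known as a secreted product of cytotoxic lymphocytes, and lies beside FGFBP1 in the genome. Amplified FGFR1 is a recurrent lesion of squamous lung cancer.

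All values are log2 signals relative to the 75th percentile of gene spots on the same array, so a value of 0 is the signal that 75% of spots fell below, and a difference of 1 is 2-fold. Above background here means that 50% or more of a probe's spots carried the scanner software's mark for it, which held for 82.0% to 91.4% of probes, lowest on the non-target array and highest on the empty-vector array. Before scaling the 75th percentile lay between 1366 on the CNOT6 shRNA array and 3986 on the CNOT7 shRNA array, and 0 spots were saturated. All arrays were on 1 slide. Slide row 1 held both controls with PARN and CNOT6 shRNA. Slide row 2 held CNOT6L, CNOT7 and NOC shRNA with no control, and its NOC shRNA image was processed on a different day from the rest, so for those shRNAs the slide row and the contrast with the controls cannot be told apart. The targeted mRNA was lowest on its own array for each of the 5 shRNAs, at 45.8% of the control mean for PARN, 89.6% for CNOT6, 63.0% for CNOT6L, 54.2% for CNOT7 and 74.3% for NOC. Of 10 squamous markers, 6 were above background on all arrays (SOX2, KRT6A, KRT15, KRT17, PKP1 and PERP), while the defining markers TP63, KRT5 and KRT14 passed on 2, 4 and 1 arrays and DSG3 on 0. Markers of other cell types were above background on all arrays for 2 of 3 adenocarcinoma genes, 2 of 3 fibroblast genes, 3 of 3 endothelial genes and 3 of 3 leukocyte genes. Over all of these markers, passing or not, values lay between -8.31 (PDGFRB, fibroblast) and -0.47 (NKX2-1, adenocarcinoma). NKX2-1 was above background on all arrays and read -0.74 to -0.47.

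No FGF member differed 2-fold from both controls with any of the 5 shRNAs, of which that against CNOT6 left its own target at 89.6%. The count was 0 of 14 probes for PARN, where 0.737% of all probes were called by the same rule, and 0 of 14 for CNOT6 (0.642% of all probes), CNOT6L (1.01%), CNOT7 (1.34%) and NOC (1.76%). The rule required each control to differ from the shRNA array by 2-fold or more, both the same way, with the brighter side above background. With shares this low, 14 probes would rarely hold a called one, so the counts of 0 say little about the members as a set. With 1 array per group these differences have no replicate check, and the arrays' number limits the precision. In bulk RNA, fewer cells expressing a gene and less RNA per cell cannot be told apart. Of the 14 probes, 13 were above background on all 7 arrays and 1 of the FGF2 probes (A_33_P3379886) on none.

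**Figure D1:**
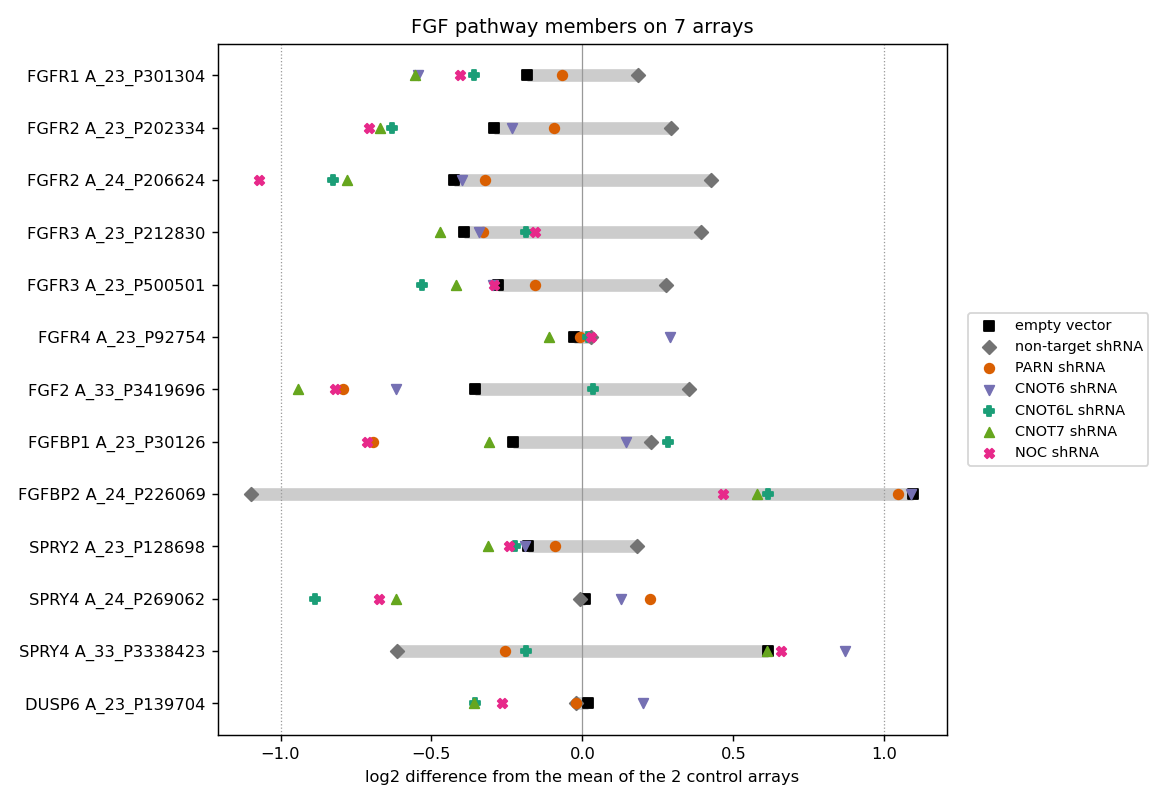
Differences of each FGF probe from the mean of the empty-vector and non-target arrays, on the log2 scale (x axis), for the 13 probes of 10 genes that were above background (y axis). Each point is 1 array, the grey bar spans the 2 controls, and dotted lines mark 2-fold; the control bar is widest for FGFBP2, where the controls were 2.19 apart, and no shRNA array lies 1 or more beyond both ends of a bar.

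The receptors were brightest on the non-target array for 5 of their 6 probes. Of all probes above background on all arrays, 12.3% were brightest there. FGFR2 and FGFR3 each had 2 of the 6 probes. FGFR1 (A_23_P301304) read 1.97 with empty vector, 2.34 with non-target shRNA, 2.08 for PARN shRNA, 1.61 for CNOT6, 1.79 for CNOT6L, 1.60 for CNOT7 and 1.75 for NOC. Every shRNA array except that of PARN lay below both controls, by 0.17 to 0.37 on the log2 scale below the empty-vector array, which was the lower control. That array itself lay 0.37 below the non-target array, so the shRNA arrays differed from the nearer control by no more than the controls differed from each other, apart from the CNOT7 shRNA array, where both differences round to 0.37. In limma, fitted to 38004 probes that passed background on 2 or more arrays, FGFR1 was -0.39 ± 0.16 (SE) in the 5 shRNA arrays against the 2 controls, with an unadjusted p of 0.0408 and an adjusted p of 0.99997. The difference was -0.31 with slide row as a term, -0.57 with the empty-vector array left out and -0.20 with the non-target array left out.

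FGFR2, an epithelial receptor for FGFs made by neighbouring stroma, was read by 2 probes that gave the same order of arrays at both ends. The brighter probe (A_23_P202334) read -3.36 with empty vector, -2.77 with non-target shRNA, -3.16 for PARN, -3.30 for CNOT6, -3.70 for CNOT6L, -3.74 for CNOT7 and -3.77 for NOC. The dimmer probe (A_24_P206624) read -5.72, -4.87, -5.62, -5.70, -6.12, -6.07 and -6.37 in the same order of arrays. On both probes the 3 arrays of slide row 2 were below every array of row 1, with a mean difference of -0.59 on the brighter and -0.71 on the dimmer probe. FGFR3 was also read by 2 probes, and on both the slide rows overlapped: A_23_P500501 lay between 1.60 and 1.84 there against 1.83 to 2.41 in row 1, whereas A_23_P212830, printed on 1 spot, lay between -2.97 and -2.66 against -2.90 to -2.11. FGFR4 (A_23_P92754) varied least of all members, from -2.99 on the CNOT7 shRNA array to -2.58 on the CNOT6 shRNA array, a range of 0.40 that was narrower than on most probes, since 14.8% of probes above background on all arrays had a smaller one.

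FGF2, a ligand that lacks a classical secretion signal, was dim. Its probe A_33_P3419696 read -6.50 with empty vector and -5.80 with non-target shRNA, -6.94 for PARN, -6.77 for CNOT6, -6.12 for CNOT6L, -7.09 for CNOT7 and -6.97 for NOC. Of the shRNA arrays, that of CNOT6L lay between the controls and the others lay below both. The SD between the 2 spots of this probe reached 0.42 on at least 1 array, which is large beside the 0.71 between the controls. The other FGF2 probe, not well above background anywhere, is given no fold.

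FGFBP1 (A_23_P30126) had its highest and lowest readings on shRNA arrays. It read -1.97 with empty vector, -1.52 with non-target shRNA, -2.44 for PARN, -1.60 for CNOT6, -1.46 for CNOT6L, -2.05 for CNOT7 and -2.46 for NOC. The PARN and NOC shRNA arrays lay 0.46 and 0.49 below the empty-vector array, which is close to the 0.46 between the controls. Within slide row 2 the CNOT6L shRNA array was 0.80 above the mean of the other arrays of the row and the NOC shRNA array was 0.70 below it. The largest SD between the spots of the probe was 0.09. Against both other arrays of slide row 2, 0 of 14 member probes differed 2-fold for CNOT6L (1.16% of all probes), CNOT7 (0.309%) or NOC (0.444%).

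FGFBP2 was the member that varied most, and a single control array set its range. The probe (A_24_P226069) read -3.52 with empty vector, -5.71 with non-target shRNA, -3.57 for PARN shRNA, -3.53 for CNOT6, -4.00 for CNOT6L, -4.04 for CNOT7 and -4.15 for NOC. The non-target array stood alone, 1.56 below the next lowest array, and the other 6 arrays lay within 0.63 of each other. The range of 2.19 over the 7 arrays was wider than on 97.8% of probes above background on all arrays. Signals were 4.41-fold over the non-target array for PARN, 4.55-fold for CNOT6, 3.28-fold for CNOT6L, 3.19-fold for CNOT7 and 2.95-fold for NOC, while the empty-vector array, which carries no shRNA, was 4.57-fold over it. Against the empty-vector array the ratios were 0.96 for PARN, 0.99 for CNOT6, 0.72 for CNOT6L, 0.70 for CNOT7 and 0.65 for NOC. On this scale the FGFBP2 difference therefore had opposite signs for the 2 controls with all 5 shRNAs, although for PARN and CNOT6 the difference from the empty-vector array was only -0.05 and -0.01 and turned to 0.07 and 0.02 with normexp background correction (for PARN also to 0.06 with quantile normalization). With normexp the log2 differences from the non-target array shrank to 1.19 for PARN, 1.15 for CNOT6, 0.98 for CNOT6L, 0.90 for CNOT7 and 0.84 for NOC, the last 3 under 2-fold, and that of the empty-vector array to 1.12. The probe was printed on 1 spot per array, so it has no error between spots, and it was above background on all 7 arrays.

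How far the choice of control set these differences was examined for all members. At least 2-fold higher than on the non-target array alone were 1 of 14 probes for PARN (5.58% of all probes), 2 for CNOT6 (10.9%), 1 for CNOT6L (6.91%), 2 for CNOT7 (5.75%) and 2 for NOC (5.84%). FGFBP2 was among them each time, and the dim SPRY4 probe A_33_P3338423 was the second one for CNOT6, CNOT7 and NOC. At least 2-fold lower than on the non-target array were 1 of 14 probes for PARN (1.35% of all probes), 0 for CNOT6 (0.998%), 1 for CNOT6L (1.65%), 2 for CNOT7 (2.08%) and 2 for NOC (2.18%). These were FGF2 for PARN, CNOT7 and NOC, and the dimmer FGFR2 probe for CNOT6L, CNOT7 and NOC. Against the empty-vector array alone, 0 of 14 probes differed 2-fold in either direction for PARN (8.02% of all probes), CNOT6 (4.69%), CNOT6L (9.70%), CNOT7 (11.5%) or NOC (12.4%). Between the controls themselves 2 of 14 member probes differed 2-fold, where 16.6% of all probes did, and they were again FGFBP2 and the dim SPRY4 probe, both higher on the empty-vector array. Of the 13 member probes above background on all arrays, 9 were lower with empty vector than with non-target shRNA, as were 37.9% of all such probes, and the median of these differences was -0.37 against 0.13 over all 33742 such probes. In limma FGFBP2 was 0.76 ± 0.48 (SE) higher in the 5 shRNA arrays than in the 2 controls, with an unadjusted p of 0.148 and an adjusted p of 0.99997. Without the empty-vector array it was 1.86 with an adjusted p of 0.0822, and without the non-target array it was -0.34 with an adjusted p of 0.895.

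The region around the start of FGFBP2 is shown because this gene carried the widest differences. The RefSeq window of 250 bases before to 50 after the start lies at chr4:15963126-15963425 on the minus strand of GRCh38.p14, and is printed 5′ to 3′ with capitals for a GC box (GGGCGG or its reverse complement).

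FGFBP2 promoter: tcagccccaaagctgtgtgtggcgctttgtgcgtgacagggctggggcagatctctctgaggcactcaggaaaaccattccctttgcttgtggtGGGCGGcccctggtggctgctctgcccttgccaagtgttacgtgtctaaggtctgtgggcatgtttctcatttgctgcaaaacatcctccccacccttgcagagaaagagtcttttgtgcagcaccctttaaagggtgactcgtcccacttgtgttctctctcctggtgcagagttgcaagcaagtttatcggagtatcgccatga

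The window held 54.0% G and C, near the median of 58.7% over 35116 promoter windows of the same length, with 7 CG dinucleotides against a median of 14. A GC box occurred in 45.0% of all those windows. Neither the ETS core CCGGAA, found in 17.2% of windows, nor TATAAA, found in 11.5%, occurred on either strand. These letters are a description of the window and not of factor binding.

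The genes most like FGFBP2 and FGFR1 over the 7 arrays were sought among named genes with probes above background on all arrays, by the root mean square difference between profiles centred on their own mean. The closest to FGFBP2 were ZNF432, a zinc finger gene, at 0.10, HDC, which makes histamine from histidine, at 0.11, and MYBPC3, a sarcomere protein, at 0.12, where the median over 21193 probes was 0.73. All had their lowest value on the non-target array, where ZNF432 read -6.03, HDC -4.10 and MYBPC3 -3.06, and their values on the empty-vector array were -4.19, -2.26 and -0.88. The closest to FGFR1 were EFHD1 at 0.06, the integrin subunit gene ITGA3 at 0.06 and RNF185 at 0.07, against a median of 0.33. Since the genes were picked for like profiles, a lowest or highest array shared with FGFBP2 or FGFR1 largely follows from the choice. Of all probes above background on all arrays, 24.6% were lowest on the non-target array and 12.3% highest. These likenesses are descriptions over 7 arrays that share slide and controls.

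**Figure D2:**
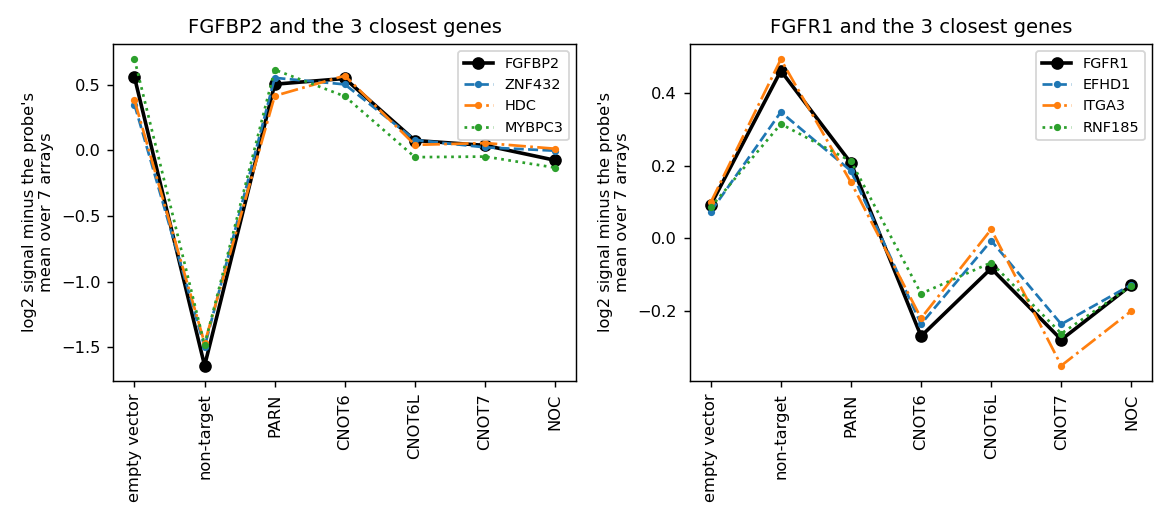
Centred log2 profiles over the 7 arrays (x axis) of FGFBP2 and FGFR1 with the 3 named genes closest to each, as the log2 signal minus the probe's mean over all arrays (y axis). Each point is 1 array. FGFBP2, ZNF432, HDC and MYBPC3 share their lowest point on the non-target array. FGFR1 and its 3 closest genes share their highest point there. The genes were picked for like profiles, so these shared points largely follow from the choice.

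Of the feedback genes, SPRY4 on its brighter probe and DUSP6 differed more between slide rows than between the controls, and SPRY2 did not. SPRY4 (A_24_P269062) read 0.31 with empty vector, 0.30 with non-target shRNA, 0.53 for PARN and 0.43 for CNOT6, and -0.58 for CNOT6L, -0.31 for CNOT7 and -0.37 for NOC. The controls differed by only 0.02, and all arrays of slide row 2 lay below all arrays of row 1. In fold terms SPRY4 was at 0.54 of the control mean for CNOT6L, 0.65 for CNOT7 and 0.63 for NOC, which did not reach the 2-fold rule. DUSP6 (A_23_P139704) read 2.13 with empty vector, 2.09 with non-target shRNA, 2.09 for PARN and 2.31 for CNOT6, and 1.75 for CNOT6L, 1.75 for CNOT7 and 1.84 for NOC. Here too the rows did not overlap, and the controls were 0.04 apart. SPRY2 (A_23_P128698) lay between 1.43 and 1.81 in row 1 and between 1.31 and 1.40 in row 2, so its rows did not overlap either.

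The comparison of rows was added after these values had been seen, and it compares the CNOT6L, CNOT7 and NOC shRNA arrays with the controls, PARN shRNA and CNOT6 shRNA arrays as much as it compares slide rows. By limma 2 of 13 member probes passed an adjusted p of 0.05, where 6.87% of 38004 probes did. They were SPRY4, at -0.81 ± 0.11 (SE) with an adjusted p of 0.00541, and DUSP6, at -0.37 ± 0.09 (SE) with an adjusted p of 0.0370, both lower in row 2. In the deposited log2 table, where 0 of 38004 probes passed in limma, SPRY4 was at -0.76 with an adjusted p of 0.0625. These limma fits let the variance follow a probe's mean signal. The array medians of that table lay between -0.02 and 0.09, so its values may be centred per probe, without that signal level. What this did to the count of 0 was not tested. Without scaling SPRY4 was at -0.09 with an adjusted p of 0.849. SPRY4 stayed below the threshold of 0.05 without any 1 array, at adjusted p from 0.00263 to 0.0402. DUSP6 did not: its adjusted p was 0.0747 without the empty-vector array, 0.0826 without the PARN shRNA array, 0.150 without the CNOT6L, 0.141 without the CNOT7 and 0.102 without the NOC shRNA array. FGFR2 (A_23_P202334) had an adjusted p of 0.0669 in the same fit, and without the non-target array it passed at 0.0301, as did FGFBP2 at 0.0208, a setting in which 20.5% of all probes passed. Over the 13 probes the median difference of row 2 from row 1 was -0.22, against -0.08 over all probes tested. All row 2 arrays lay below all row 1 arrays for 5 of 13 member probes (16.6% of all such probes) and above them for 0 of 13 (9.45%). The 5 were both FGFR2 probes, SPRY2, SPRY4 and DUSP6. Since row 2 held no control, slide position and the shRNAs placed there cannot be told apart.

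**Figure D3:**
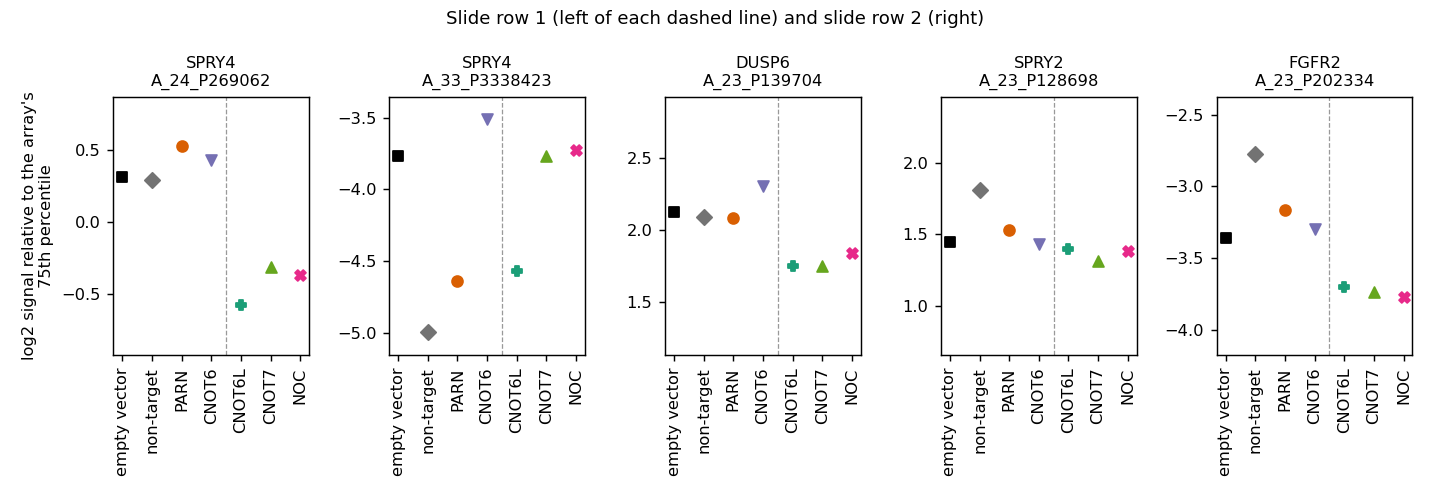
Log2 signal relative to the 75th percentile of each array (y axis) for the 2 SPRY4 probes, DUSP6, SPRY2 and FGFR2 (A_23_P202334) on the 7 arrays (x axis), with slide row 1 left and slide row 2 right of the dashed line and the same length of y axis in each panel. Each point is 1 array; the rows do not overlap for SPRY4 probe A_24_P269062, DUSP6, SPRY2 and FGFR2, and do overlap for SPRY4 probe A_33_P3338423.

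The SPRY4 probes disagreed. The dimmer probe A_33_P3338423, printed on 1 spot, read -3.76 with empty vector, -5.00 with non-target shRNA, -4.64 for PARN, -3.51 for CNOT6, -4.57 for CNOT6L, -3.77 for CNOT7 and -3.72 for NOC. It differed by 1.23 between the controls and by 0.21 ± 0.37 (SE) between slide rows, with an adjusted p of 0.763 in limma, so the lower SPRY4 signal in row 2 rests on the brighter probe alone. That probe was printed on 2 spots, whose SD was at most 0.04.

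The windows around the starts of SPRY4 and DUSP6 are shown because the brighter SPRY4 probe and the DUSP6 probe passed the adjusted threshold between slide rows. FGFR2 and SPRY2 were also lower in row 2 without overlap, and their windows are not printed. Of those, a SPRY2 window held 1 ETS core. They are RefSeq windows of the same extent in GRCh38.p14, at chr5:142324198-142324497 for SPRY4 and chr12:89352452-89352751 for DUSP6, both on the minus strand, with capitals for any GC box, ETS core or TATAAA found on either strand.

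SPRY4 promoter: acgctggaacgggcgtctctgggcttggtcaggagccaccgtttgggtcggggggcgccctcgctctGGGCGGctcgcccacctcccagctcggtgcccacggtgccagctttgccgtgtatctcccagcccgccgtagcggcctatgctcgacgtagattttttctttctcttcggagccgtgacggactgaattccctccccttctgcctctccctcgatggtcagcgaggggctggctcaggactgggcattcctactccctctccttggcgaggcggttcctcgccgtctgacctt
DUSP6 promoter: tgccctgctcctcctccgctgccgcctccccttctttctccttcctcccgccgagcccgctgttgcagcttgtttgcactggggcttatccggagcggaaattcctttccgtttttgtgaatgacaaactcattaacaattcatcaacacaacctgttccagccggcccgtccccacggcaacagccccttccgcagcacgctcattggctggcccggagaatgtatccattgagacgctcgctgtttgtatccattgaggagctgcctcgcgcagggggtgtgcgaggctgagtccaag

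The SPRY4 window held 1 GC box, 65.0% G and C and 26 CG dinucleotides. The DUSP6 window held none of these letters, 58.3% G and C and 19 CG dinucleotides. Both gene windows thus had more CG dinucleotides than the median window.

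In the comparison of all 5 shRNA arrays with both controls, limma called 0 of 13 member probes and 0 of 38004 probes (0%), with 1 member probe, that of FGFR1, and 1420 probes at an unadjusted p under 0.05. Estimates were negative for 10 of 13 member probes, with a median of -0.30, against 51.5% of all probes and a median of -0.01. The estimates ranged from -0.68 for the dimmer FGFR2 probe to 0.76 for FGFBP2. Below both controls were 3 of 13 member probes for PARN, 4 for CNOT6, 7 for CNOT6L, 11 for CNOT7 and 9 for NOC, where 27.6%, 22.5%, 33.1%, 39.3% and 37.8% of probes above background on all arrays were. The median differences from the control mean were -0.09, -0.19, -0.22, -0.42 and -0.29 in the same order. Over all probes above background on all arrays they were 0.003, 0.11, -0.02, -0.08 and -0.06. The comparisons share their control arrays.

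Of 76 other FGF pathway genes in 5 lists, 75 had a named probe, and the brightest probe stood for each gene. None of the 75 differed 2-fold from both controls with any shRNA, where 0.642% to 1.76% of all probes did, so that few or none would be called at those shares. Between the controls 7 of 75 differed 2-fold, 6 of them higher on the empty-vector array, where 16.6% of all probes differed, 16.0% higher and 0.658% lower. Most of these differences thus had the direction most common on the whole array, while the count lay below the whole-array share. That share is over all probes, dim ones included, whereas each listed gene stands by its brightest probe, so the sets are not alike. FGF8 was higher by 1.20 on the log2 scale, FGF18 by 1.19 and FGF20 by 1.05. FGF10 was higher by at least 1.07 and FGF23 by at least 1.12, since both were not well above background on the non-target array. FLRT1, a membrane protein that binds FGF receptors, was higher by 1.505. FGFRL1, a receptor form without a kinase domain, was the exception at -1.02. Among genes above background on all arrays, 13 of 17 ligands read higher on the empty-vector array, with a median of 0.40, where 62.1% of all probes did, with a median of 0.13, while the medians of co-receptors, signalling genes, feedback inhibitors and ERK target transcription factors lay between -0.07 and 0.00. Of the 75 genes 1, FLRT2, was 2-fold from both other arrays of slide row 2, where 1.16% of all probes were for CNOT6L, 0.309% for CNOT7 and 0.444% for NOC. On the CNOT7 shRNA array it was lower, by a difference of -1.13 or beyond from the nearer of them. FLRT2 was above background on only 2 of the 7 arrays and not on the CNOT7 shRNA array, so that difference is a bound. It was chosen after its values were seen.

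**Figure D4:**
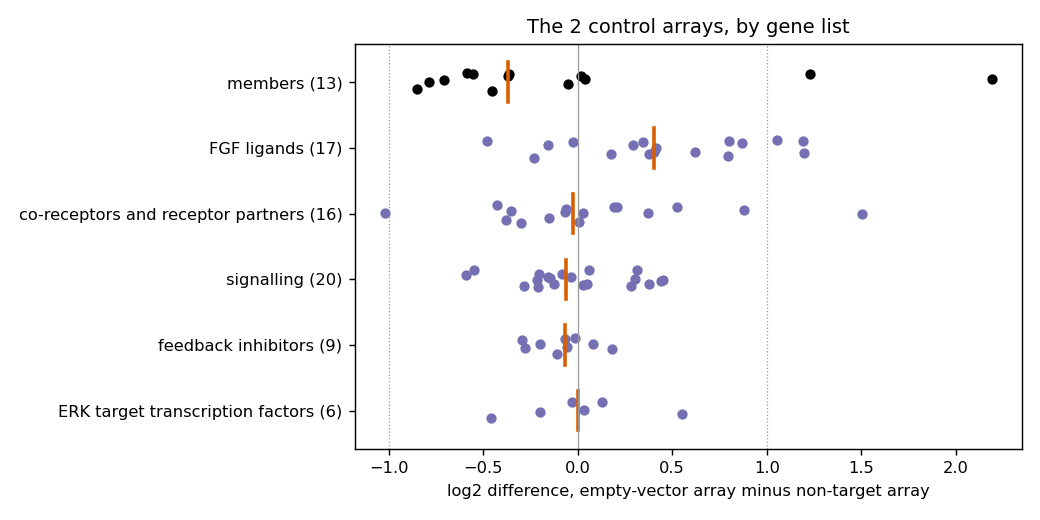
Log2 difference of the empty-vector array from the non-target array (x axis) for FGF members (13 probes) and for the brightest probe of each listed pathway gene (y axis, with the number of genes in brackets), limited to probes above background on all arrays. Each point is 1 probe, spread vertically at random, the vertical bar is the median and dotted lines mark 2-fold; the ligands have the highest median, 0.40, and the members the lowest, -0.37.

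In the comparison of slide rows 9 of the 73 listed genes tested by limma passed the adjusted threshold, 7 lower and 2 higher in row 2, where 6.87% of all probes passed, 4.45% lower and 2.42% higher. Those named below were named after their values were seen. Each list's count below is small and stands against those shares. Of the feedback inhibitors 2 of 9 were lower. SPRY1, a sprouty gene like SPRY4, differed by -0.81 ± 0.16 (SE) with an adjusted p of 0.0208, and DUSP4, a phosphatase of ERK and related kinases, by -0.78 ± 0.13 (SE) with an adjusted p of 0.0113. SPRY1 read -2.79, -2.72, -2.36 and -2.42 on the empty-vector, non-target, PARN and CNOT6 shRNA arrays and -3.51, -3.42 and -3.20 on the CNOT6L, CNOT7 and NOC shRNA arrays. Of the ERK target transcription factors 1 of 6, ETV5, differed, by -0.43 (adjusted p = 0.0417 in limma). Of the ligands 2 of 20 were lower, FGF3 at -0.47 and FGF4 at -0.68, and of the receptor partners 1 of 18, the adhesion molecule NCAM1, at -0.79. Of 20 signalling genes 1 was lower, whose values are not reported here, and 2 were higher, the adaptor GRB2 by 0.58 and the ERK kinase MAP2K1 by 0.43. The lists' median differences were -0.22 for ligands, 0.05 for partners, 0.08 for signalling genes, -0.19 for feedback inhibitors and -0.31 for ERK target factors, against -0.08 over all probes tested.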

How the data were processed

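RNA of NCI-H520 cells was hybridised to 7 SurePrint G3 Human GE 60K arrays in 1 colour. Per the file headers, Agilent Feature Extraction 10.7.3.1 made the deposited processed intensity of each spot, which is background-subtracted and not scaled between arrays. The authors also deposited log2 values per probe. After 1 shift per array, their differences between arrays matched those of scanner values within 0.02 for 100% of probes above background on all arrays. A constant subtracted per probe would not show in that check.

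Of 62976 spots, 58717 were gene spots. Control spots and spots marked as outliers were left out, log2 signals minus the array's 75th percentile were averaged over the spots of a probe, and a probe with only outlier spots on an array had no value there. Of 42405 probes, 34085 were on 1 spot, 7321 on 2 and 999 on 10, and the median SD between 2 spots was 0.05 to 0.07. Symbols came from a RefSeq table of GRCh38.p14 by accession, which named 24826 probes. All members are reported, and listed genes are named where their brightest probe differed 2-fold from both controls or between them, at most 12, and 9 more were named from the comparisons within and between slide rows after their values were seen. The members and gene lists were chosen with earlier results of these data known. The values of 1 listed gene are counted but not reported here.

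In the 2-fold rule a side not above background was raised to that array's lowest above-background value where it lay under it, so such differences are lower bounds. The limma 3.58.1 fits in R 4.3.3 used lmFit, then eBayes with an intensity trend (two-sided tests), on probes above background on at least 2 arrays with a value on all 7, with Benjamini-Hochberg adjustment over all of them and a threshold of 0.05. With 1 array per group a single shRNA has no replicates, and for it limma took the controls as 1 arm with 1 residual degree of freedom with the same variance for the single shRNA array. Nothing says that the arrays come from more than 1 culture each, and p-values measure only the spread between these arrays. The fits were tested on simulated data. Alternatives were quantile normalization, a 4-fold threshold, normexp (offset 50) on median signals, since mean signals were not used here, followed by quantile normalization, unscaled signals, the deposited log2 table, outlier spots kept, other filters, no trend, slide row as a term, 1 probe per member, and leaving out each array.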

Additional observations from a re-analysis of the deposited data

How the results depend on the processing

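The counts of member probes 2-fold from both controls stayed at 0 for all 5 shRNAs under a 4-fold threshold, quantile normalization, normexp, the deposited log2 table, outlier spots kept, a stricter background filter and 1 probe per member. The limma fits of 1 shRNA array against the controls called at most 6 probes on the whole array and say nothing about the members. Without scaling the 2-fold counts were 2 for PARN, where 521 of all probes were called, and 7 for CNOT6, where 5569 were. They were 0 for CNOT6L, CNOT7 and NOC, where 442, 738 and 530 of all probes were called. Leaving out a control gave 0 to 2 for PARN, CNOT6 and CNOT6L and 0 to 4 for CNOT7 and NOC, with the higher counts against the non-target array alone. The counts against slide row mates and the count in limma of 5 shRNA arrays against 2 controls stayed at 0 under every alternative run. Between the controls the count of 2, where 7046 of all probes were called, was 1 at 4-fold (1287 of all probes) and 1 with normexp (960). It was also 1 with 1 probe per member. With quantile normalization it was 3 (3317 of all probes), and the lower calls were the dimmer FGFR2 probe and FGF2. In the comparison of slide rows the count of 2, where 2610 of 38004 probes were called, was 0 without scaling (5230 of all probes) and 0 from the deposited log2 table (0). It was 1 without a trend (916 of all probes) and 1 to 4 on leaving out an array (275 to 7796). The differences themselves stayed at -0.76 for SPRY4 and -0.32 for DUSP6 in the deposited table, where limma called 0 of 38004 probes (8929 at an unadjusted p under 0.05), and at -0.37 for DUSP6 without a trend. In that comparison DUSP6 turned to 0.35 without scaling and SPRY4 was at -0.09. FGFBP2 in the 5 shRNA arrays against the controls ran from -0.34 to 1.86 on leaving out an array. Of 70 single differences from the control mean, 21 changed sign without scaling, which shifts all probes of an array alike, by -0.76 to 0.78 relative to the non-target array, 18 without the non-target array, 5 without the empty-vector array, 4 with normexp, 1 with quantile normalization and 0 with the deposited table or with outlier spots kept. The 70 include the differences of FGF2 probe A_33_P3379886, which was above background on 0 arrays. With quantile normalization the median of all probes moved by -0.31 to -0.02 relative to the non-target array, and with normexp by -0.23 to 0.00. The causes were not tested. No paired analysis was possible because each group had 1 array.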
